A study of Homo sapiens with 6 samples.

Results

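The genes of protein folding, entry, clearance and stress signalling in the endoplasmic reticulum were examined in the human colorectal carcinoma line HCT116, in cells where the mucin gene MUC3A had been targeted by CRISPR. The set was a list of 38 gene symbols, divided by role into 16 chaperones and folding enzymes, 5 genes of translocation and signal peptide cleavage, 9 genes of degradation and 8 sensors and signalling genes, out of 15977 genes in the deposited count tables. The tables listed 36 of the 38. DERL3 and HYOU1 were not analysed here, and ATF6B, listed with 1 read over the 6 libraries, fell under the filter on low counts, so 35 members were tested among 12679 genes. There were 3 groups of 2 poly(A) RNA-seq libraries each. KO1 and KO2 were MUC3A knockout cells made with the first and the other guide RNA, carried by lentiCRISPR v2 virus at a multiplicity of infection of 10, and WT was the control. Infected cells were kept in 2 µg/mL puromycin for 72 h. WT is named wild type in its genotype and negative control in its treatment, and a scrambled virus appears in the protocol, so it is unclear whether WT cells also carried Cas9 and puromycin resistance. The labels do not say whether the knockout lines were pools or clones, nor whether the libraries of a group stem from separate cultures. P-values therefore cover the spread among the libraries and nothing beyond it, and that spread may be technical.

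Secreted and membrane proteins enter the endoplasmic reticulum through the Sec61 channel, lose their signal peptide, and fold with the help of chaperones, lectins and disulfide isomerases. Proteins that fail to fold are retrotranslocated and degraded by the proteasome. When unfolded proteins build up, the sensors IRE1 (gene ERN1), ATF6 and PERK (gene EIF2AK3) start the unfolded protein response. IRE1 splices XBP1 mRNA, cleaved ATF6 enters the nucleus, and PERK slows translation, and together these raise the transcription of chaperone, translocation and degradation genes. Intestinal epithelial cells that secrete mucins rely on this response.

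Total counts per library lay between 13638724 and 17830282, the highest in the HCT library of KO2. Column names carry a prefix, HCT116 or HCT, with 1 library of each prefix in every group. The labels do not explain the prefix, and the 2 kinds of library stood far apart, with 63.9% of the genes tested called between them, so knockouts were compared with controls within a prefix. Pairs of values name the HCT116 library and then the HCT library of a group. MUC3A itself had 28.6 and 52.9 CPM (reads scaled to a common library size) in KO1, 24.6 and 30.04 CPM in KO2, and 25.1 and 52.7 CPM in WT. Its log2 fold changes of 0.08 in KO1 and -0.43 in KO2 were not called by edgeR's quasi-likelihood test with Benjamini-Hochberg adjustment (adjusted p = 0.962 and 0.237), and a small insertion or deletion need not change a transcript count. The KO2 value rests on the HCT libraries: it was -0.77 and called without the HCT116 library of KO2 (edgeR adjusted p = 7.62e-05), but -0.08 with the HCT library of KO2 left out (0.826) and -0.18 with that of WT left out (0.836). Of 8 epithelial markers, 7 were tested and high in every library, with summed levels of 15412 and 9076 CPM in KO1, 9584 and 5522 CPM in KO2, and 8779 and 6663 CPM in WT; VIL1 stood at or near 0. Of 16 markers of other cell types, leukocyte, fibroblast, endothelial, plasma cell and pancreatic, 11 were listed and 3 were tested. The defining markers PTPRC (leukocytes), DCN (fibroblasts) and CDH5 (endothelium) were at or near 0 in every library, as were CD14, MZB1 and CPA1, and PECAM1 had 3 to 14 reads. The 3 tested were CD68, a lysosomal protein of macrophages, with 17.5 and 19.03 CPM in KO1, 11.8 and 4.66 CPM in KO2, and 8.50 and 7.55 CPM in WT, the collagen COL1A1, with 34.3 to 66.4 CPM over all libraries, and the syndecan SDC1, which epithelial cells also make, with 74.4 to 196 CPM. None of the 3 was called in KO1 or KO2 over WT.

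Several members carry in their promoter the letters of short control elements known from the unfolded protein response. Promoter sequences from RefSeq (GRCh38.p14, the 250 bases before each start) were found for 35 of the 38 members and searched on both strands for 3 published elements. The endoplasmic reticulum stress element ERSE (CCAAT, then 9 bases of any kind, then CCACG), which ATF6 binds, occurred in 7 of the 35 members (20%) and in 0.092% of all 27305 genes of the table. Its members were CALR, CANX, CRELD2, HSP90B1, HSPA5, PDIA6 and XBP1. The related element ERSE-II (ATTGG, then 1 base of any kind, then CCACG) occurred in HERPUD1, HYOU1 and SDF2L1, against 0.066% of genes, and the unfolded protein response element UPRE (TGACGTGG) in DNAJC10, HYOU1 and SSR3, against 0.78% of genes. The stretches around the elements are shown for the 11 tested members that carry one, 7 with ERSE, 2 with ERSE-II and 2 with UPRE, so that their values can be read beside them. Capitals mark the element, in either orientation, and each sequence runs along the gene's own strand with 20 bases on either side.
HSPA5, ERSE, chr9:125241371-125241429, minus strand: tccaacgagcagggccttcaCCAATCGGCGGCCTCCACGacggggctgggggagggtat
HSP90B1, ERSE, 2 matches, chr12:103930196-103930359, plus strand: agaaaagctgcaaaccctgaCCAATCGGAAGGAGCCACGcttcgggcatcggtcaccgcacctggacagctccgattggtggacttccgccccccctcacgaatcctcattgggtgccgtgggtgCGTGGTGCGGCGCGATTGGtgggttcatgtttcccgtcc
CALR, ERSE, chr19:12938364-12938422, plus strand: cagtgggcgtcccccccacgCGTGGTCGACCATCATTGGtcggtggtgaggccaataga
CRELD2, ERSE, chr22:49918534-49918592, plus strand: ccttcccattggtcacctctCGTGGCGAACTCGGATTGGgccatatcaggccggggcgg
PDIA6, ERSE, chr2:10812833-10812891, minus strand: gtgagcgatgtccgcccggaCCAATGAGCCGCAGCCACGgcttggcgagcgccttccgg
CANX, ERSE, chr5:179698758-179698816, plus strand: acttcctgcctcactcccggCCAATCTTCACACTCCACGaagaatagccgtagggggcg
XBP1, ERSE, chr22:28800583-28800641, minus strand: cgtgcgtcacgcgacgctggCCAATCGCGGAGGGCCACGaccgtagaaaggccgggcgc
HERPUD1, ERSE-II, chr16:56932005-56932055, plus strand: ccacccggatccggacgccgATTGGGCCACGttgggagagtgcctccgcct
SDF2L1, ERSE-II, chr22:21642094-21642144, plus strand: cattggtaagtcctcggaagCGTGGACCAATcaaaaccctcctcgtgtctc
DNAJC10, UPRE, chr2:182716112-182716159, plus strand: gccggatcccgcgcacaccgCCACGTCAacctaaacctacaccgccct
SSR3, UPRE, chr3:156554139-156554186, minus strand: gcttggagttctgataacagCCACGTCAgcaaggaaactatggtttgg
A match is a description of letters in this window and does not show that a factor bound there. The elements are known from the same response as the members, so their share among members is not independent evidence.

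The members spanned a wide range of levels, here compared as CPM per kb of exon. Folding genes led in WT cells. P4HB, a disulfide isomerase, averaged 852 CPM per kb over the 2 WT libraries, the lectin chaperone CALR 557, the Hsp90 family chaperone HSP90B1 384 and the Hsp70 family chaperone HSPA5 (BiP) 253. Some neighbours in this order overlapped between libraries: CALR had 741 and 373 CPM per kb in WT and HSP90B1 340 and 428 CPM per kb. The sensors stood low, with ATF6 at 6.87, EIF2AK3 at 4.20 and ERN1 at 2.55 CPM per kb on average in WT, while the response factor XBP1 stood at 31.3 CPM per kb. CANX, the membrane-bound partner of CALR, had 33 to 172 reads per library and an average of 1.38 CPM per kb in WT, so its values carry a large counting error. Whether so low a deposited count, or that of ATF6B, reflects the level of the transcript was not tested. The members together took 0.898% and 1.07% of counts in KO2, 0.853% and 0.835% in KO1, and 0.880% and 0.855% in WT, with the highest share in the HCT library of KO2.

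**Figure D1:**
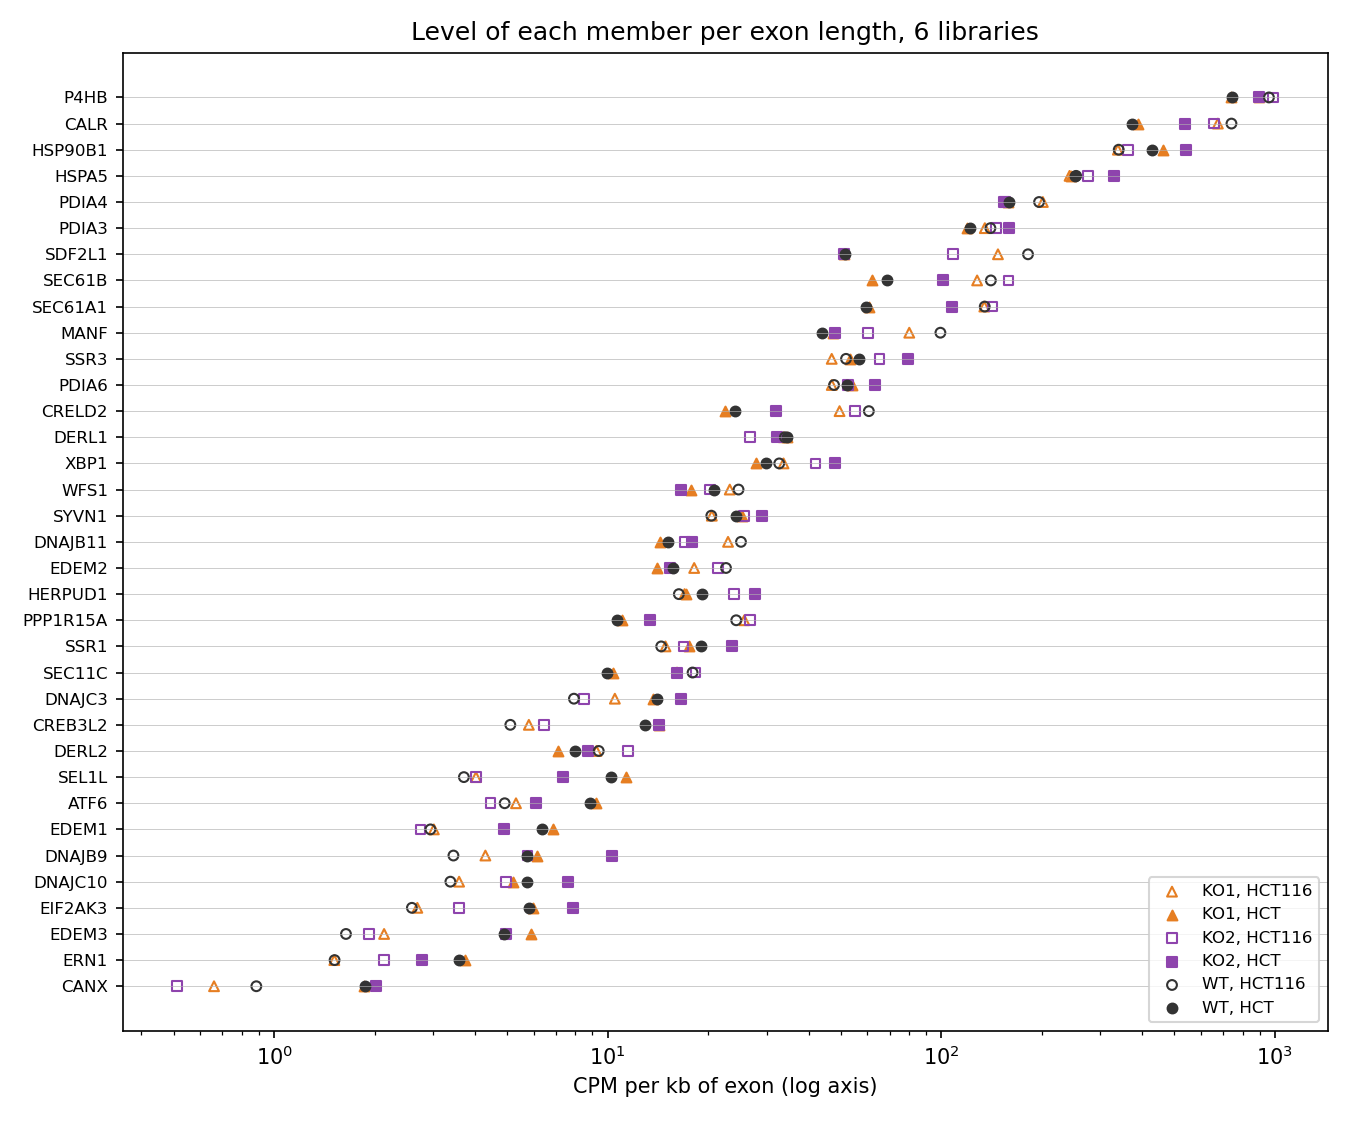
Level of each of the 35 tested members in the 6 libraries (CPM per kb of exon, log axis), ordered by the mean of the WT libraries; triangles are KO1, squares KO2 and circles WT, open for HCT116 and filled for HCT libraries. P4HB lies at the top with a WT mean of 852 CPM per kb and CANX at the bottom with 1.38 CPM per kb, and many members split by prefix more than by group.

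In KO2 cells the members as a set lay slightly above WT, and 2 of them passed the test. DNAJB9, a co-chaperone of HSPA5 and a known XBP1 target, rose 1.73-fold, and HERPUD1, which scaffolds the degradation machinery in the membrane, rose 1.45-fold. No member fell. Of the 35 members, 24 had a positive log2 fold change and 11 a negative one, with a median of 0.21 and a range of -0.39 to 0.79, while the median over all 12679 genes tested lay at 0 to 2 decimals. The 2 members called were 5.71% of those tested, against 4.62% of all genes called, 2.15% higher and 2.47% lower, so the share called was near the background. At an unadjusted p under 0.05 in edgeR there were 13 members and 2461 genes. The member ratios were higher in KO2 within both prefixes for 21 members, against 30.1% of all genes tested, and lower within both for 7, against 29.4%. The shift was larger between the HCT libraries, where the median log2 ratio of the members was 0.27, than between the HCT116 libraries, where it was 0.10. In bulk RNA, more RNA per cell and more cells of one kind cannot be told apart.

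**Figure D2:**
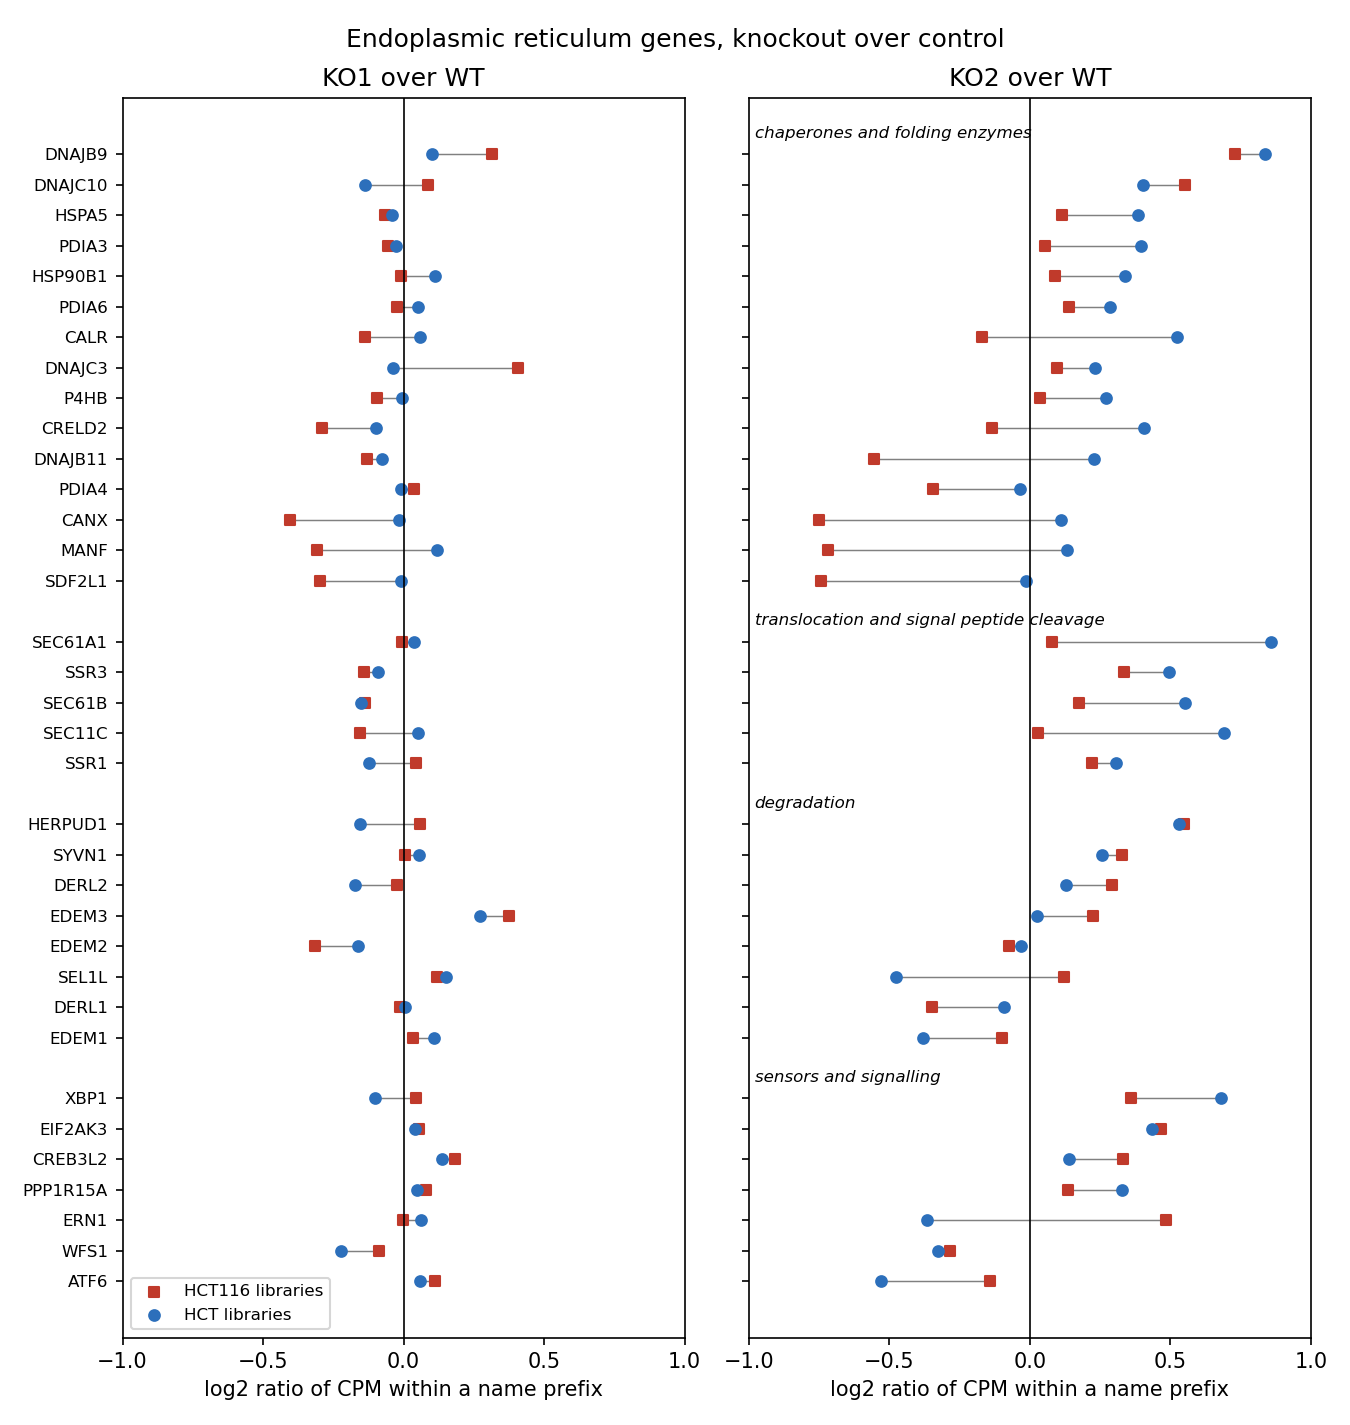
Log2 ratio of CPM for each tested member, KO1 over WT on the left and KO2 over WT on the right, grouped by role; squares are ratios between HCT116 libraries, circles ratios between HCT libraries, and the grey line joins the 2. KO1 ratios lie between -0.41 and 0.41, while in KO2 both ratios of DNAJB9 lie above 0.7 and both ratios of all 5 translocation genes lie above 0.

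Among the chaperones and folding enzymes, 1 of 15 tested members rose in KO2, none fell, and the median log2 fold change was 0.17. DNAJB9 had 15.62 and 27.9 CPM in KO2, 11.7 and 16.7 CPM in KO1, and 9.36 and 15.55 CPM in WT. The lower KO2 library and the higher WT library all but touched, so the separation shows within each prefix and hardly between pooled groups. Its log2 fold change in KO2 over WT was 0.79 ± 0.18 (SE; edgeR adjusted p = 0.0316), and the within-prefix log2 ratios were 0.73 (HCT116) and 0.84 (HCT). DNAJC10, a reductase that opens disulfides of proteins bound for degradation and carries the UPRE shown above, had 104 and 160 CPM in KO2, 75.4 and 110 CPM in KO1, and 71.0 and 121 CPM in WT. KO2 was the higher within both prefixes, but at 0.48 ± 0.12 (edgeR adjusted p = 0.0501) the difference missed the threshold narrowly.

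The most abundant chaperones did not pass. HSPA5, the central chaperone and the buffer that holds the sensors inactive, had 1074 and 1286 CPM in KO2, 947 and 958 CPM in KO1, and 991 and 985 CPM in WT. Both KO2 libraries stood above the other 4, yet the log2 fold change over WT was 0.25 ± 0.14 (edgeR adjusted p = 0.342). The share of all genes in which both KO2 libraries stand above or below the other 4 was not computed, for this member or those below. HSP90B1 had 1037 and 1552 CPM in KO2, 969 and 1327 CPM in KO1, and 975 and 1226 CPM in WT, a log2 fold change in KO2 over WT of 0.21 ± 0.13 (edgeR adjusted p = 0.425). These genes share the ERSE with CALR, whose ratio of KO2 to WT was -0.17 between HCT116 and 0.52 between HCT libraries, and with CRELD2, a secreted stress-inducible protein, at -0.14 and 0.41. All 7 members with an ERSE had a positive ratio between HCT libraries, whereas between HCT116 libraries CALR, CRELD2 and CANX had a negative one. Most members without an ERSE were also positive between HCT libraries, where the median over all members was 0.27 (0.10 between HCT116 libraries). CANX stood at -0.75 between HCT116 and 0.11 between HCT libraries, and the co-chaperone DNAJC3, which has no ERSE in this window, at 0.10 and 0.23.

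SDF2L1, a partner of the co-chaperone DNAJB11, had 93.9 and 44.1 CPM in KO2, 128 and 44.3 CPM in KO1, and 157 and 44.6 CPM in WT. The 3 HCT libraries were almost level, and the spread lay in the HCT116 libraries, where the log2 ratio of KO2 to WT was -0.74. The fitted log2 fold change of -0.39 ± 0.16 was not called (edgeR adjusted p = 0.217). MANF, a secreted cofactor of HSPA5, and DNAJB11, neither of them called, had KO2 over WT ratios of -0.72 and -0.56 between HCT116 libraries, against 0.13 and 0.23 between HCT libraries. Among the disulfide isomerases, PDIA3, PDIA6 and P4HB had positive ratios within both prefixes, none above 0.40, and PDIA4 had negative ones of -0.35 (HCT116) and -0.04 (HCT).

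All 5 genes of translocation and signal peptide cleavage stood higher in KO2 than in WT within both prefixes, against 30.1% of all genes. Their median log2 fold change was 0.37, with 0 called. At an unadjusted p under 0.05 in edgeR there were 4 of them, and 2461 of all 12679 genes tested. The 5 genes had a median ratio of 0.17 between HCT116 and 0.55 between HCT libraries. SSR3, a subunit of the translocon-associated protein complex with the UPRE shown above, had 262 and 320 CPM in KO2, 188 and 213 CPM in KO1, and 208 and 227 CPM in WT. Both KO2 libraries lay above the other 4, and the log2 fold change over WT was 0.42 ± 0.12 (edgeR adjusted p = 0.0740). SEC61A1, the pore of the translocon, had 567 and 428 CPM in KO2, 536 and 242 CPM in KO1, and 537 and 236 CPM in WT. Its difference sat in the HCT library, with ratios of 0.08 (HCT116) and 0.86 (HCT), and a log2 fold change of 0.48 ± 0.18 (edgeR adjusted p = 0.161). SEC61B, the small subunit beside the pore, had 104 and 65.9 CPM in KO2, 83.6 and 40.4 CPM in KO1, and 92.0 and 44.9 CPM in WT, a log2 fold change in KO2 over WT of 0.37 ± 0.14 (edgeR adjusted p = 0.172). SEC11C, a catalytic subunit of signal peptidase, had 49.6 and 43.7 CPM in KO2, 43.7 and 28.0 CPM in KO1, and 48.6 and 27.01 CPM in WT, again apart mainly between HCT libraries. SSR1, in the same complex as SSR3, had ratios of KO2 to WT of 0.22 (HCT116) and 0.30 (HCT).

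Among the degradation genes, 1 of 8 tested members rose in KO2 and none fell, and the median log2 fold change was 0.03. HERPUD1, with the ERSE-II shown above, had 70.4 and 81.5 CPM in KO2, 50.1 and 50.7 CPM in KO1, and 48.1 and 56.4 CPM in WT. Both KO2 libraries lay above all 4 others, without overlap, an order whose share over all genes was not computed. The log2 fold change over WT was 0.54 ± 0.13 (edgeR adjusted p = 0.0394), with nearly equal ratios of 0.55 (HCT116) and 0.53 (HCT). Its partners in the membrane complex did not pass. The ubiquitin ligase SYVN1 had 82.8 and 93.7 CPM in KO2, 66.2 and 81.6 CPM in KO1, and 66.0 and 78.5 CPM in WT, a log2 fold change in KO2 over WT of 0.29 ± 0.12 (edgeR adjusted p = 0.214). The adaptor SEL1L had 34.6 and 63.0 CPM in KO2, 34.5 and 97.5 CPM in KO1, and 31.8 and 87.7 CPM in WT, with KO2 lowest among the HCT and level with KO1 among the HCT116 libraries. DERL1, a derlin of the exit channel, had 92.5 and 112 CPM in KO2, 117 and 120 CPM in KO1, and 118 and 119 CPM in WT, so that both KO2 libraries were the lowest of all (log2 fold change over WT -0.22 ± 0.12, edgeR adjusted p = 0.369). DERL2, its relative, had ratios of KO2 to WT of 0.29 (HCT116) and 0.13 (HCT). The EDEM family, which trims mannose from misfolded glycoproteins, showed no common direction, with ratios of KO2 to WT from -0.10 to 0.22 between HCT116 and from -0.38 to 0.03 between HCT libraries.

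Among the sensors and signalling genes, 0 of 7 tested members passed in KO2 over WT, 4 had an unadjusted p under 0.05 in edgeR, and the median log2 fold change was 0.23. XBP1, the transcription factor that IRE1 activates by splicing, had 85.6 and 97.6 CPM in KO2, 68.6 and 56.8 CPM in KO1, and 66.6 and 60.9 CPM in WT. Both KO2 libraries were above the other 4, and the log2 fold change over WT of 0.53 ± 0.14 just missed the threshold (edgeR adjusted p = 0.0596). Counts per gene do not separate spliced from unspliced XBP1. EIF2AK3, the kinase PERK, had 17.3 and 38.1 CPM in KO2, 13.0 and 28.9 CPM in KO1, and 12.5 and 28.1 CPM in WT, with near-equal ratios of 0.47 (HCT116) and 0.43 (HCT) to WT and a log2 fold change of 0.45 ± 0.16 (edgeR adjusted p = 0.139). ATF6 had 33.4 and 45.7 CPM in KO2, 39.8 and 69.0 CPM in KO1, and 36.8 and 66.2 CPM in WT. KO2 was the lowest within both prefixes, at -0.34 ± 0.15 over WT (edgeR adjusted p = 0.229). WFS1, a membrane protein of calcium balance, had 73.7 and 60.2 CPM in KO2, 84.6 and 64.9 CPM in KO1, and 89.8 and 75.7 CPM in WT, and was likewise lowest in KO2 within both prefixes, at -0.31 ± 0.12 over WT (edgeR adjusted p = 0.194). ERN1 had 20.9 and 27.2 CPM in KO2, 14.8 and 36.6 CPM in KO1, and 14.9 and 35.1 CPM in WT. Its ratios of KO2 to WT were 0.49 between HCT116 and -0.37 between HCT libraries, and the fitted 0.05 ± 0.22 (edgeR adjusted p = 0.925) is an average of opposite differences. CREB3L2 and PPP1R15A, the subunit that reverses the PERK signal, had positive ratios of KO2 to WT within both prefixes, 0.33 (HCT116) and 0.14 (HCT) for CREB3L2 and 0.14 and 0.33 for PPP1R15A. DDIT3, the pro-apoptotic factor CHOP downstream of PERK and no member of the set, stayed low with 8.15 and 7.38 CPM in KO2, 6.34 and 4.82 CPM in KO1, and 5.03 and 5.92 CPM in WT, and its log2 fold change in KO2 over WT of 0.49 ± 0.26 was not called (edgeR adjusted p = 0.333).

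The calls in KO2 over WT rest on few libraries. Leaving out either WT library ended both (edgeR adjusted p of DNAJB9 0.174 without the HCT and 0.179 without the HCT116 library of WT; HERPUD1 0.136 and 0.284), leaving out either KO1 library ended that of HERPUD1 (0.0860 and 0.0724), and without the prefix as a replicate block 0 members passed, with an adjusted p of 1 for both genes. Without the HCT library of KO2 the median log2 fold change of the members was 0.12, with DNAJB11, MANF, PDIA4 and SDF2L1 (-0.68) among the lower ones. Without its HCT116 library the median was 0.27, with CALR, SEC61A1 and XBP1 among the higher members and ATF6 and SEL1L among the lower. Each of these fits rests on a lone KO2 library. The number of calls over all genes rose in them too, so their member calls are not listed.

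In KO1 cells no member differed from WT by the test. The count was 0 of 35 by edgeR, with 0 also at an unadjusted p under 0.05, 0 in every alternative fit tried, DESeq2 and limma-voom included, and a background of 1.03% of genes called, 0.678% higher and 0.347% lower. The median log2 fold change was -0.03, which turned positive without the HCT library of KO1 (0.014) or the HCT116 library of WT (0.042), and the range was -0.24 to 0.32. Ratios were higher in KO1 within both prefixes for 9 members, against 31.1% of all genes tested, and lower within both for 12, against 30.1%. The member with the smallest p among the degradation genes, EDEM3, had 14.8 and 40.9 CPM in KO1, 13.3 and 34.4 CPM in KO2, and 11.4 and 33.8 CPM in WT, a log2 fold change in KO1 over WT of 0.32 ± 0.16 (edgeR adjusted p = 0.642). EDEM2 had 34.9 and 26.9 CPM in KO1, 41.2 and 29.5 CPM in KO2, and 43.4 and 30.1 CPM in WT, the lowest in KO1 within both prefixes. Of the folding genes CRELD2 had 78.1 and 35.4 CPM in KO1, 87.1 and 50.2 CPM in KO2, and 95.7 and 37.9 CPM in WT, a log2 fold change in KO1 over WT of -0.20 ± 0.15 (edgeR adjusted p = 0.817). DNAJC3, a co-chaperone of HSPA5, had 58.7 and 76.6 CPM in KO1, 47.4 and 92.4 CPM in KO2, and 44.3 and 78.6 CPM in WT, apart between HCT116 libraries and level between HCT libraries. SEC61B led the translocation genes with -0.14 ± 0.14 (edgeR adjusted p = 0.875). CREB3L2, a membrane-anchored factor released like ATF6, led the signalling genes with 49.1 and 120.3 CPM in KO1, 54.4 and 120.4 CPM in KO2, and 43.2 and 109 CPM in WT, a log2 fold change in KO1 over WT of 0.16 ± 0.12 (edgeR adjusted p = 0.834). KO1 and KO2 share their WT libraries, so the 2 comparisons are not independent.

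The guides were also compared directly. In KO2 over KO1, 5 of the 35 members rose and none fell, 14.3% against 9.66% of all genes called, 4.27% higher and 5.39% lower. HERPUD1 rose by 0.59 ± 0.13 on the log2 scale (edgeR adjusted p = 0.0156), SSR3 by 0.53 ± 0.12 (0.0158), XBP1 by 0.55 ± 0.14 (0.0306), SEC61B by 0.51 ± 0.14 (0.0413) and DNAJC10 by 0.50 ± 0.12 (0.0242). In each of these genes KO2 was above KO1 within both prefixes. For HERPUD1, SSR3 and XBP1 both KO2 libraries also lay above both KO1 libraries, whereas for DNAJC10 and SEC61B the groups overlapped because the prefixes stood apart. The share of all genes separated in this way was not computed. DNAJB9, called over WT, was not called over KO1 (0.59 ± 0.18, edgeR adjusted p = 0.0649). The members were higher in KO2 within both prefixes for 21 genes, against 32.5% of all genes tested, and lower for 7, against 33% of all genes; their median log2 fold change was 0.20. All 5 translocation genes were positive, with a median of 0.47. Of 7 tested epithelial markers 4 were called lower in KO2 than in KO1, against 5.39% of all genes. These were KRT8, KRT18, KRT19 and CDH1, by 0.46 to 0.78 on the log2 scale. Over WT these 4 lay at 0.42 to 0.67 in KO1 and at -0.13 to -0.01 in KO2, none called. Of the 3 tested markers of other cell types, CD68 (-1.25, edgeR adjusted p = 0.0248) and SDC1 (-0.58, 0.0317) were lower in KO2 than in KO1. COL1A1 was at 0.36 (edgeR adjusted p = 0.176). Over WT, CD68 lay at 1.21 in KO1 and -0.04 in KO2, and SDC1 at 0.18 and -0.41. Their part in the member results was not tested. Leaving out either KO1 library ended all 5 calls (edgeR adjusted p of HERPUD1 0.365 without the HCT and 0.0826 without the HCT116 library of KO1), as did leaving out the replicate block. SEC61B was also not called by DESeq2 (adjusted p = 0.0596). Without the HCT library of KO2, XBP1 and SEC61B were no longer called. The median log2 fold change of the members was then 0.11, with DNAJB11, MANF, PDIA4 and SDF2L1 among the lower ones. Without its HCT116 library the median was 0.28, with ATF6, EDEM1 and SEL1L among the lower members. These fits leave a group with a lone library, and the number of calls over all genes also changed with the library left out.

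**Figure D3:**
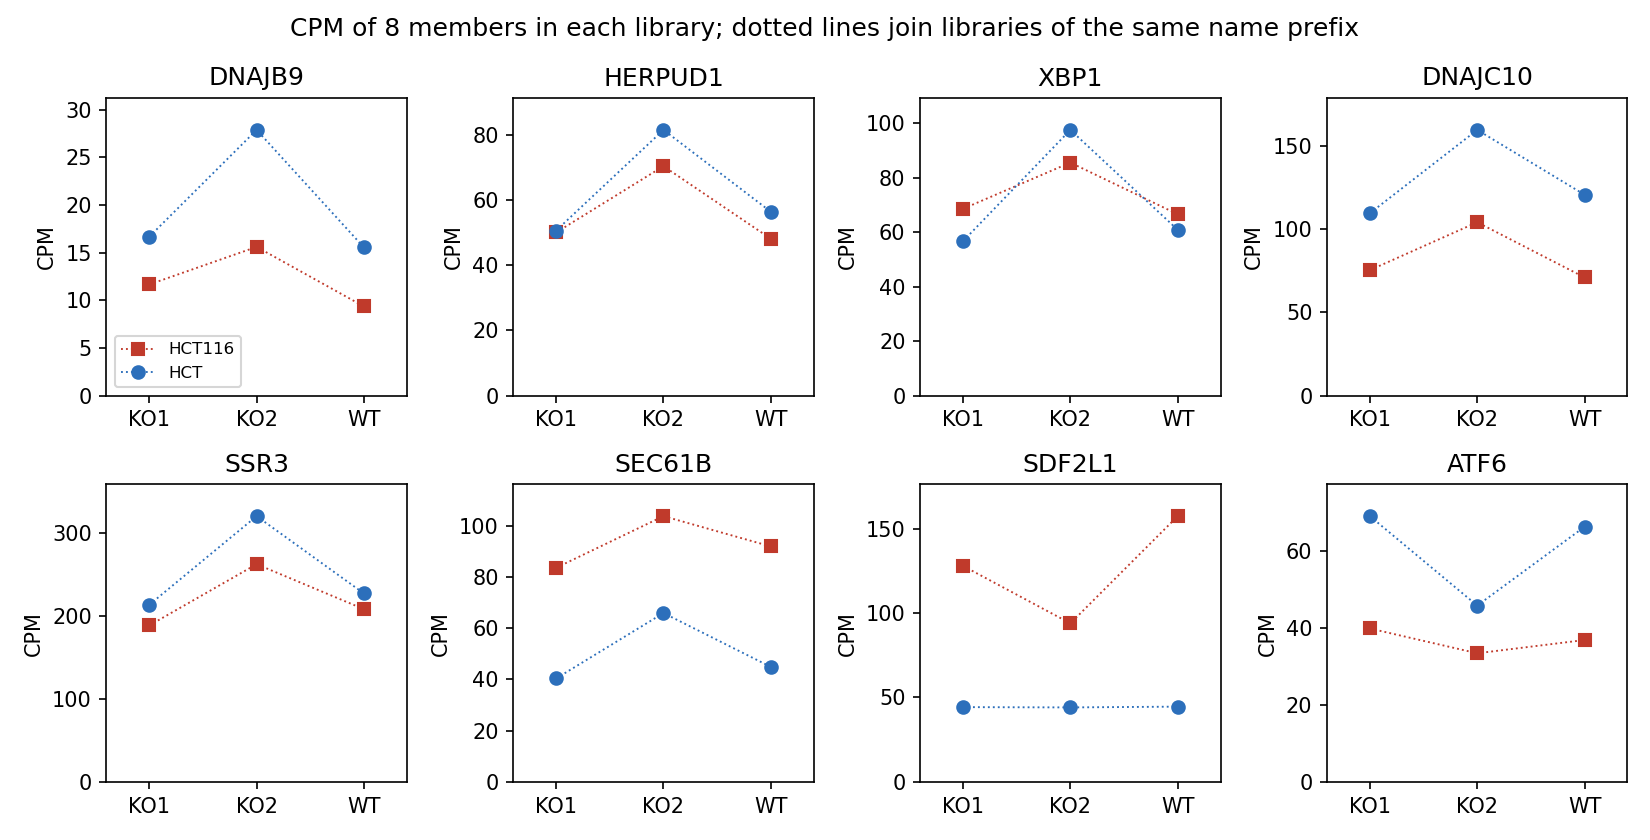
CPM of 8 members in each library (linear axes from 0), with KO1, KO2 and WT along the horizontal axis, squares for HCT116 and circles for HCT libraries, and dotted lines joining libraries of a prefix. DNAJB9, HERPUD1, XBP1, DNAJC10, SSR3 and SEC61B peak in KO2 within both prefixes (HERPUD1 at 70.4 and 81.5 CPM), ATF6 is lowest there, and SDF2L1 varies mainly among HCT116 libraries.

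The difference between the prefixes was far larger than that between the groups. Between HCT116 and HCT libraries 25 of 35 members were called (71.4%, against 63.9% of all genes), 12 higher (31.8% of all genes) and 13 lower (32.1%) in the HCT116 libraries. In all 3 groups alike, 12 members were higher in the HCT116 library, against 38.3% of all genes, and 18 lower, against 40.2%. SDF2L1 was higher by 1.48 ± 0.14 on the log2 scale, the phosphatase subunit PPP1R15A by 1.13 ± 0.12, CRELD2 by 1.09 ± 0.12, SEC61A1 by 0.91 ± 0.15 and SEC61B by 0.91 ± 0.11. CANX was at -1.50 ± 0.24, EDEM3 at -1.46 ± 0.13, SEL1L at -1.27 ± 0.14, CREB3L2 at -1.26 ± 0.10, EIF2AK3 at -1.15 ± 0.13, EDEM1 at -1.04 ± 0.13 and ERN1 at -0.96 ± 0.18. The edgeR adjusted p of these 12 genes was at most 6.69e-04. The other 13 members called lay between -0.73 (DNAJC3) and 0.76 (MANF). Of these, DNAJB11, DERL2 and WFS1 lost the call without either KO1 or either WT library (edgeR adjusted p up to 0.172), HSP90B1 lost it without the HCT116 library of KO1 (0.0618) and SEC11C without the HCT116 library of WT (0.0515). HSPA5, XBP1, HERPUD1, SYVN1, DERL1, SSR3, PDIA3, PDIA4, PDIA6 and P4HB did not pass. The members that were higher in HCT116 libraries had a median exon length of 2.15 kb and a median GC content of 53.9%, those lower 6.95 kb and 41.2%, and those not called 3.35 kb. Across the 35 members the log2 difference between prefixes was correlated with log2 length at r = -0.748 (Spearman rho -0.778) and with GC content at r = 0.594 (rho 0.525). Over all 12679 genes the same measures were -0.499 (rho -0.521) and 0.533 (rho 0.554). These are descriptions across genes of the same 6 libraries, and genes are not independent replicates.

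**Figure D4:**
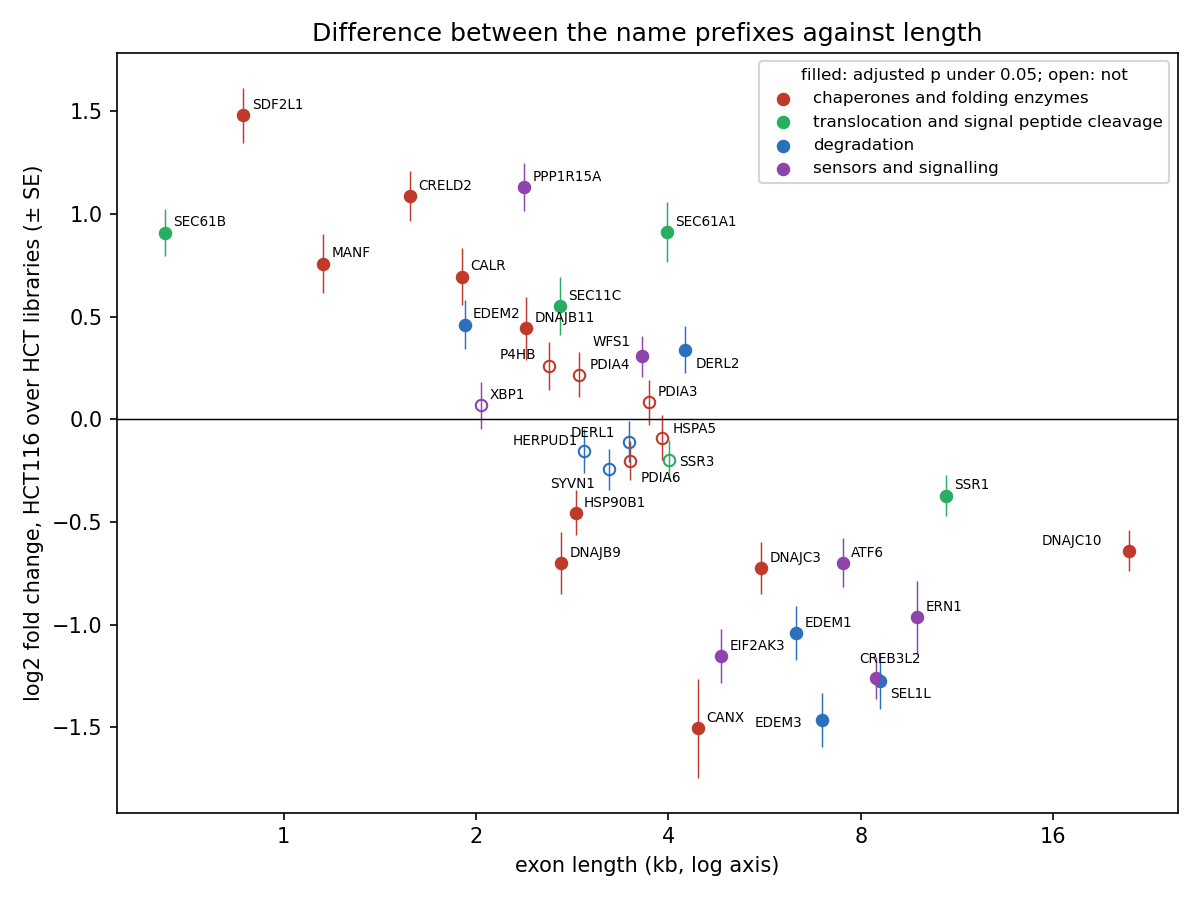
Log2 fold change between HCT116 and HCT libraries (± SE) of each tested member against its exon length (kb, log axis), coloured by role; filled points had an edgeR adjusted p under 0.05. Short transcripts such as SDF2L1 (1.48) and SEC61B (0.91) lie above 0 and long ones such as SEL1L (-1.27) and EDEM3 (-1.46) below.

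The fitted KO2 differences were little correlated with length, but each averages 2 prefixes, whose ratios differed in sign for some members. Correlation with length within a prefix was not computed. Across the 35 members the log2 fold change of KO2 over WT was correlated with log2 length at r = 0.069 (rho 0.024). That of KO1 over WT was at r = 0.497 (rho 0.510). Over all genes the values were -0.035 (rho -0.024) and 0.076 (rho 0.163). With GC content the members' r was -0.254 (rho -0.202) in KO2 and -0.357 (rho -0.304) in KO1. Over all genes it was -0.04 (rho -0.095) and -0.082 (rho -0.196). The size of the prefix difference itself varied with the group. The median absolute log2 ratio between the HCT116 and HCT libraries over the members was 0.54 in KO1, 0.41 in KO2 and 0.76 in WT, and over all genes 0.59 in KO1, 0.49 in KO2 and 0.66 in WT. SEC61A1, SDF2L1 and SEL1L, with large prefix differences in WT, were among the genes whose KO2 over WT ratio differed between the prefixes. In EIF2AK3, EDEM3, CREB3L2 and PPP1R15A, also far apart between prefixes in WT, the 2 ratios lay closer together. They were 0.47 (HCT116) and 0.43 (HCT) in EIF2AK3 and 0.22 and 0.03 in EDEM3. The part of length or composition in these ratios was not tested. The medians of the genes around the 2 called members lay nearer to 0 in KO2 over WT than the members themselves, but that around HERPUD1 was the highest for any member. In windows of 31 genes the median around HERPUD1 on chromosome 16 was 0.17 and that around DNAJB9 on chromosome 7 was -0.09 (log2), while medians around the members ranged from -0.21 to 0.17. In KO2 over KO1 the median around HERPUD1 was 0.29, again the highest, and the next was 0.11 around DNAJC10. The part of the neighbourhood in the HERPUD1 calls was not tested.

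A wider list of 78 other genes of the same roles gave few calls. Of these, 74 were tested, and in KO2 over WT 2 rose (2.70%, against 4.62% of all genes) and none fell. TRAM1, a membrane protein that assists translocation, had 211 and 348 CPM in KO2, 158 and 224 CPM in KO1, and 140 and 230 CPM in WT, a log2 fold change in KO2 over WT of 0.60 ± 0.12 (edgeR adjusted p = 0.0186). MAP3K5, the stress kinase ASK1 downstream of IRE1, had 39.0 and 65.0 CPM in KO2, 15.1 and 31.9 CPM in KO1, and 13.7 and 31.2 CPM in WT, a log2 fold change of 1.27 ± 0.16 (edgeR adjusted p = 0.00142). Of 13 wider translocation genes 12 were positive in KO2 over WT, against 50% of all genes, with a median of 0.31. Within both prefixes 9 were higher, against 30.1% of all genes, and the median ratio was 0.19 between HCT116 and 0.37 between HCT libraries. In the other wider roles, 14 of 26 chaperones and folding enzymes were positive in KO2 over WT (median 0.04). So were 9 of 18 degradation genes (0.02) and 9 of 17 sensors and signalling genes (0.02). The wider lists, too, were drawn up with earlier results of these data known. In KO1 over WT 1 wider gene fell, TRIB3, a pseudokinase induced by ATF4 and CHOP, with 45.4 and 20.7 CPM in KO1, 68.2 and 43.4 CPM in KO2, and 82.0 and 37.2 CPM in WT (-0.85, edgeR adjusted p = 0.0277). The TRAM1 call over WT was lost without the HCT or the HCT116 library of WT (edgeR adjusted p = 0.0553 and 0.153), and that of TRIB3 without the HCT116 library of WT (0.339) or without either KO1 library (0.323 and 0.0612). In KO2 over KO1 6 wider genes rose (8.11%, against 9.66% of all genes) and none fell: SPCS2, a signal peptidase subunit (0.59), TRAM1 (0.53), the signal peptide peptidase HM13 (0.42), TRIB3 (0.83), the glutathione-degrading enzyme CHAC1 (1.27) and MAP3K5 (1.19). Without the HCT library of KO1, MAP3K5 alone of these 6 was called (the edgeR adjusted p of the others lay between 0.0512 and 0.436). In either comparison with WT, no member had a p-value under 0.05 in the authors' deposited table. Whether counting used the strand is not stated, so reads of genes overlapping a member on the other strand cannot be told apart from its own.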

How the data were processed

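Raw read counts per gene symbol and library were used as the authors deposited them, per the file headers. The authors' deposited log2 fold changes and p-values served for a single count. The tools in the submitters' processing notes are STAR, HTSeq 0.6.0 and DESeq2, with hg18 as the build and no roles given. The WT counts are the same in both tables, which were joined on symbol (15284 genes shared, 264 more in the KO1 table and 429 more in the KO2 table, these with 0 reads in WT). In all, 46 columns of per-sample values were not used, the authors' own length-scaled values among them, in place of which levels per length divide CPM by the exon length of the GENCODE 29 annotation, matched by symbol for all 12679 genes tested. GC content is that of the longest transcript there. Column names give no replicate number, so they were matched to groups only.

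Counts were tested with edgeR 4.0.16 in R 4.3.3: TMM scaling, a low-count filter by filterByExpr (minimum 10), and glmQLFit with glmQLFTest over the 6 libraries with the prefix as a block (2 residual degrees of freedom), and Benjamini-Hochberg adjustment at 0.05 over 12679 genes. The size of the log2 fold change over the root of F gave its standard error. CPM rest on TMM-scaled sizes, log2 ratios on a prior count of 2. The prefix pairs libraries in the data: deviations from group means correlated at 0.867 (KO1 and WT), 0.815 (KO2 and WT) and 0.783 (KO2 and KO1). Paired libraries were not copies, with a chi-square over degrees of freedom of 119 in KO1, 91.5 in KO2 and 142 in WT. Alternatives used DESeq2 1.42.0, limma 3.58.1 (voom), other scalings, no filter and left-out libraries. At these depths 3 counts are 0.157 to 0.236 CPM.

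The members and lists were chosen with earlier results of these data known, so no list was tested. Library values are given for members called between groups, the 3 members of each role with the smallest p in KO1 or KO2 over WT, and for HSPA5, HSP90B1, ERN1, ATF6, EIF2AK3, XBP1 and DDIT3. The edgeR fit with the prefix block was tested on simulated counts with known changes, larger than those of the members over WT. The other steps were not tested in this way.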

Additional observations from a re-analysis of the deposited data

Results flagged for a closer look

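The response of 5 members differed between the guides by the direct test of KO2 against KO1 in edgeR, 14.3% against 9.66% of all genes. These calls did not hold without the replicate block or with either KO1 library left out. The log2 fold changes of KO2 over KO1 were 0.59 for HERPUD1, 0.53 for SSR3, 0.50 for DNAJC10, 0.55 for XBP1 and 0.51 for SEC61B. Over WT, HERPUD1 was the member of these 5 that passed in KO2, and none passed in KO1. TRIB3 and CHAC1, targets of ATF4 and no members, also rose in KO2 over KO1 (0.83 and 1.27), while TRIB3 fell in KO1 over WT (-0.85). No group held enough libraries to look for a library apart from its group.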

How the results depend on the processing

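Without the replicate block 0 genes and 0 members were called in KO1 over WT, KO2 over WT and KO2 over KO1 (173, 310 and 515 genes and 0 members at an unadjusted p under 0.05 in edgeR). Genes called in KO1 over WT numbered 312 with no filter, 205 with DESeq2, 879 with the 4 libraries of the groups alone, and 69 to 901 with a library left out. Genes called in KO2 over WT numbered 938 with no filter and 318 to 2171 with a library left out, and in KO2 over KO1 392 to 3203. Members called in KO2 over WT numbered 4 with upper-quartile scaling, no filter or limma-voom (DNAJC10 and XBP1 added), 1 with DESeq2 or with 4 libraries (HERPUD1 lost, adjusted p = 0.0555 and 0.0552), and 0 to 11 with a library left out; in KO2 over KO1 they numbered 4 with DESeq2 (SEC61B lost) and 0 to 16 with a library left out. Members called in KO1 over WT stayed at 0 in each alternative. Between prefixes 21 to 28 members were called with a library left out. Signs turned for ERN1 in KO2 over WT (-0.057 without the block, -0.05 with limma-voom, -0.38 to 0.51 with a library left out), MUC3A in KO1 over WT (-0.13 to 0.35 with a library left out) and CRELD2 in KO1 over WT (-0.38 to 0.0014), none of them called, as did the members' median in KO1 over WT (-0.12 to 0.042 with a library left out); the cause was not tested. With 2 libraries a group, the fit that leaves out a library assumes that the lone library varies like the others.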
